A study of Mus musculus with 27 samples.

Results

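The chromatin surroundings of 6 genes of the muscle programme were described in Hi-C data from C2C12 cells, an established mouse myoblast line. The genes were *Myod1*, *Myog*, *Myf5*, *Myf6*, *Des* and *Pax7*, and they fell into 5 windows of 4 Mb, since *Myf5* and *Myf6* are neighbours. The rule for the windows takes the 40 kb bins around each gene in the build mm9 and uses no measured value. They held 100 bins each, and together 500 of the 66382 bins of the genome. All bins of the 5 windows carried contacts. The middle of a window was taken as the bin at its midpoint with 1 bin on each side, 120 kb in all. The middle was compared with the middles of 191 other windows, laid end to end over the same chromosomes. Chromosome 1 was tiled separately for *Myog* and *Des*, so its other windows overlap.

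The study asked how a boundary between chromatin domains at the *Firre* locus responds to deletion of that locus, with RNA-seq, CTCF ChIP-seq and Hi-C in mouse cells. The Hi-C data used here came from wild-type C2C12 cells with no treatment named, as 2 replicates that the authors pooled into 1 matrix. Nothing in the labels says that the cells were differentiated, and whether the libraries came from separate cultures is not given for the line. No expression data of C2C12 cells were analysed here, so the activity of the 6 genes in these cells was not measured. With 1 pooled matrix there were no replicates, and no comparison below carries a test.

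Hi-C joins DNA ends that lie close together in the nucleus, so the number of joined read pairs between bins is a measure of their contact. Mammalian chromosomes fold into domains that contact themselves more than their neighbours, separated by boundaries that often hold sites of the zinc finger protein CTCF, and on a larger scale into a gene-rich and a gene-poor compartment. *Myod1*, *Myf5*, *Myf6* and *Myog* encode basic helix-loop-helix factors that drive myogenic commitment and differentiation and bind the E-box CANNTG. *Pax7* encodes a paired-box factor of muscle stem cells. *Des* encodes desmin, the intermediate filament protein of muscle.

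The 250 bases upstream of the annotated start sites of 3 of the genes are given first, because these starts mark the loci whose contacts are described. They are on mm9, written 5′ to 3′ on the strand of the gene, with each CANNTG match in capitals. The motif reads the same on both strands.
Myod1 promoter, chr7:53631594-53631843, plus strand: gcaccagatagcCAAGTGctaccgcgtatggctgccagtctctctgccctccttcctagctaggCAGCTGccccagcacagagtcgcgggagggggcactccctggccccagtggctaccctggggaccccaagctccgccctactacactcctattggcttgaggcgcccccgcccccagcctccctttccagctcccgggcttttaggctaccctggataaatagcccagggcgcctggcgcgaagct
Myog promoter, chr1:136186331-136186580, plus strand: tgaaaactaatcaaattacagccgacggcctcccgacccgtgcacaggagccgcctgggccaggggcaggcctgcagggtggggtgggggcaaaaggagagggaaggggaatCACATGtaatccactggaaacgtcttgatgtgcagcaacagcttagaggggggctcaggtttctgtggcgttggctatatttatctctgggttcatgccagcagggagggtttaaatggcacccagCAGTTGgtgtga
Des promoter, chr1:75356654-75356903, plus strand: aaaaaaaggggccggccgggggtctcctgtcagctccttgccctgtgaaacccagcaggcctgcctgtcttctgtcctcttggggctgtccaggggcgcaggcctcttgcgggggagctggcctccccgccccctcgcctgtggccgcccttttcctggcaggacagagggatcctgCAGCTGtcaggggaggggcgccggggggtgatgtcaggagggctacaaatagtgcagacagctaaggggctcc
The *Myod1* and *Myog* promoters each held 2 matches and the *Des* promoter 1. *Myf6* and *Pax7* had 1 match each and *Myf5* none. A match was present in 63.5% of the 22367 promoters of this length. The form CAGCTG was present in 3 of the 6, *Myod1*, *Des* and *Pax7*, and in 11.8% of all promoters.

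A second set of sequences was read at the edges of the domains that hold the genes. A strict 14-letter form of the CTCF consensus, searched on both strands, was found in 14.6% of the 519 boundary bins of these chromosomes and in 9.08% of all their bins. When 1 bin on each side was added, the shares were 31.4% and 23.3%. By contrast, the 12-letter core of that motif was too frequent to be of use at this bin size, with 80.7% and 78.1%. The matches printed here lie at the edges of the *Des*, *Myod1* and *Pax7* domains or in the *Myog* middle, and they are not all the matches found at these edges. The 14 matching bases are in capitals.
Des right edge, first match, chr1:75594403-75594416, minus strand: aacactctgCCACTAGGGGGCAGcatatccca
Des right edge, second match, chr1:75650315-75650328, plus strand: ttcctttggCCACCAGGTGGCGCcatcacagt
Myod1 right edge, first match, chr7:54336846-54336859, minus strand: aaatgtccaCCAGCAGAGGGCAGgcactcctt
Myod1 right edge, second match, chr7:54406166-54406179, minus strand: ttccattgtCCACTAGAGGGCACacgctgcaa
Pax7 right edge, chr4:140676830-140676843, minus strand: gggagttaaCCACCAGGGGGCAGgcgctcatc
Myog middle, chr1:136228642-136228655, minus strand: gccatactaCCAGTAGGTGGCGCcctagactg
The right edge of the *Des* domain, the sharpest of the edges, was flanked by a match on the minus strand to its left and by one on the plus strand to its right. The right edge of the *Myog* domain had 4 further matches, 1 on the plus and 3 on the minus strand. No match lay within 1 bin of either edge of the *Myf5*-*Myf6* domain, or of the left edges of the *Myog*, *Des* and *Pax7* domains. Binding of CTCF at these letters was not tested.

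The matrix held a corrected contact signal. The underlying read pairs could be recovered as whole numbers for nearly all bin pairs, and they amounted to 25004780, of which 88.6% joined bins of the same chromosome. The median bin had 622 read pairs, and 78.1% of the bin pairs with a contact rested on a single read pair. Contact is given as observed over expected, the signal divided by the chromosome mean at the same distance. Intervals are exact 95% Poisson intervals of the read pairs and cover counting error only. Insulation is the log2 of the contact across a position within 480 kb on either side, against the chromosome mean, so that low values mark positions that few contacts cross. A boundary is called where the mean insulation over 320 kb on the left ceases to exceed that over 320 kb on the right, which can lie beside the lowest bin, and its strength is the change of that difference across it.

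*Myod1* lay at the crest of its insulation profile. The 3 middle bins had insulation values of 0.97, 1.02 and 1.01, and the *Myod1* bin itself had the highest value of the 100 bins of the window. Of 34 other windows of chromosome 7, 32 had a lower middle, with a median of -0.76. With an 800 kb square the middle was at -0.16, below the chromosome mean, with 64.7% of other windows lower. The gene sat far from the edges of its domain, 560 kb from the left and 760 kb from the right. The domain, chr7:53080001-54360000, measured 1280 kb, longer than 61.7% of the domains of chromosome 7, and held 33 coding gene starts. Against the domains at the midpoints of other windows it was longer than 16 of 34 (47.1%). Nearest to the midpoint on the left were *Kcnj11* and *Abcc8*, the subunits of an ATP-sensitive potassium channel, with *Ush1c* and *Otog*, genes of the inner ear. On the right followed *Kcnc1*, a voltage-gated potassium channel, *Sergef* and *Tph1*, a tryptophan hydroxylase.

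Contacts of the *Myod1* middle were high nearby and low farther away. Within 400 kb the ratio to the expected contact was 1.36, above 31 of 34 other windows, and beyond 400 kb it was 0.50, above 2 of 34. In read pairs, 744 were observed nearby against 520.8 expected, a ratio of 1.43 (1.33 to 1.54), and 156 farther away against 300.8, a ratio of 0.52 (0.44 to 0.61). Over the whole window the ratio was 1.03, with 17 of 34 other windows lower. In read pairs it was 1.10, with 73.5% of other windows lower, and in a window of 2 Mb 1.15, with 76.5% lower. The high contacts of the middle thus fell inside the domain, where its ratio was 1.25, while the ratio was 0.60 to the domain on the left and 0.26 to the domain on the right.

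The right edge of the *Myod1* domain, in the bin of *Ptpn5*, a tyrosine phosphatase gene, had a strength of 3.77 and ranked 14 of 108 boundaries on the chromosome. The left edge, in the bin of *Cyth2*, ranked 45. Contact across 480 kb on either side of the left edge was 0.62 times that within these flanks, and 0.59 times at the right edge, while at the midpoint it was 1.38 times. Among 3498 positions of the chromosome, 503 and 444 had lower values than the left and right edges, so neither was extreme. Far bins are given, here and in the other windows, from among those beyond 400 kb that contacted at least 2 of the 3 middle bins. At *Myod1*, the highest far ratio was lower than in all 31 other windows with a value. Of its 3 highest far bins 2 are given, and they are not the highest. One 600 kb to the left had a ratio of 1.29 and rested on 9 read pairs, and one 760 kb to the left rested on 4. The former held the starts of *Sult2b1*, a sulfotransferase gene, *Gm5897* and *Lmtk3*, a kinase gene, and the latter those of the growth factor gene *Fgf21*, the fucosyltransferase gene *Fut1* and *Izumo1*, a sperm protein gene.

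**Figure D1:**
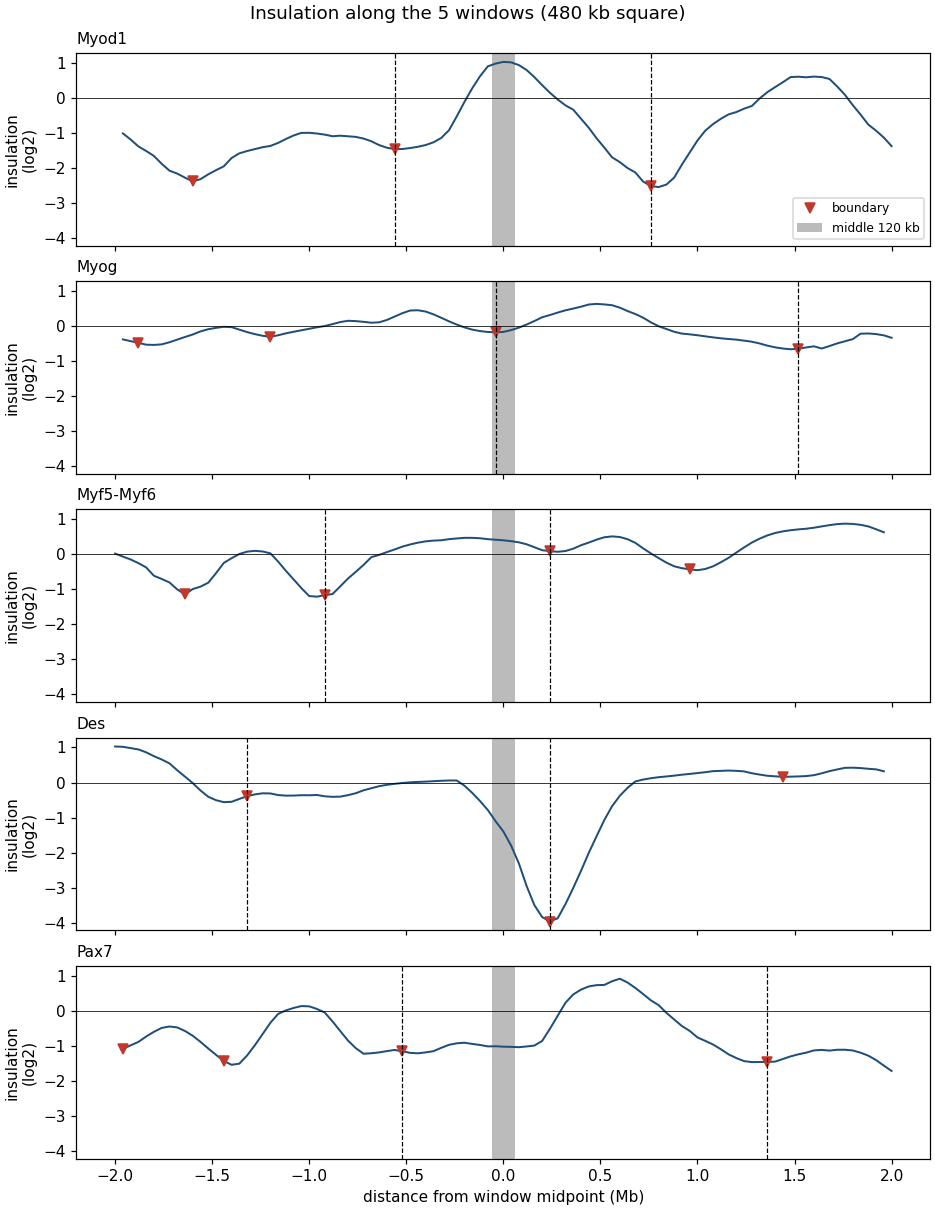
Insulation (log2 of contact across each bin against the chromosome mean, 480 kb square) along the 5 windows, by distance from the midpoint in Mb. Triangles mark boundaries, the grey band the middle 120 kb and dashed lines the edges of its domain; the *Myod1* middle sits at a crest near 1.00 and the *Des* middle on the slope down to -3.97.

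*Myf5* and *Myf6*, whose starts share 1 bin, also lay above the chromosome mean. Insulation was 0.41, 0.40 and 0.37 in the 3 middle bins, and 25 of 30 other windows of chromosome 10 had a lower middle. Their domain, chr10:106040001-107160000, measured 1120 kb and was gene-poor. It held 5 coding gene starts, the other 3 being *Acss3*, an acyl-CoA synthetase, *Lin7a*, a scaffold protein of cell junctions, and *Ptprq*, a receptor-type phosphatase. The whole window had 14 coding gene starts, below the median of 24 in the other windows, whereas the other 4 windows were gene-rich.

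The contacts of the *Myf5*-*Myf6* middle were lopsided. The ratio was 0.69 to the left and 1.42 to the right, and in read pairs 303 and 570, or 0.74 (0.66 to 0.83) and 1.42 (1.31 to 1.55) times the expected number. All 3 middle bins shared this direction, with 0.76, 0.85 and 0.71 on the left against 1.61, 1.38 and 1.13 on the right. Of 30 other windows, 5 leaned further to the right. The right edge of the domain, 240 kb away, had a strength of 0.50, rank 108 of 117, and the ratio of the middle was 1.16 to the domain beyond it against 1.13 within its own domain. To the domain on the left, beyond an edge of strength 2.10, rank 34 of 117, the ratio was 0.26. The strengths of the left and right edges were closer with a 320 kb square, at 1.12 and 0.97, and with absent bin pairs left out, at 0.59 and 0.46. The left edge then ranked 84 of 138 and 91 of 115. The 3 most contacted far bins lay 800 and 680 kb to the right and 1600 kb to the left, with ratios of 2.94, 2.02 and 2.47. They rested on 12, 19 and 4 read pairs, and no coding gene started in them. The bin 680 kb to the right overlapped *Ppp1r12a*, and the others overlapped no coding gene. With an 800 kb square the right edge was not called, and the nearest boundary was 840 kb from the midpoint in place of 240 kb.

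*Myog*, in contrast, sat next to a boundary. The bin 40 kb to its left, which holds the start of *Adora1*, an adenosine receptor gene, was the left edge of its domain, and 2 of 45 other windows of chromosome 1 had a nearer one. The edge was shallow. Its strength of 1.04 ranked 121 of 175, contact across it was 0.75 times that within its flanks, and 989 of 4760 positions of the chromosome had a lower value. Insulation was -0.18, -0.17 and -0.12 in the 3 middle bins, with 22 of 45 other windows lower. With an 800 kb square the nearest boundary was 160 kb away.

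The *Myog* domain, chr1:136160001-137680000, measured 1520 kb, longer than 87.4% of the domains of the chromosome, with 31 coding gene starts. Against the domains at the midpoints of other windows it was longer than 33 of 45 (73.3%). Next to *Myog* followed *Ppfia4*, a liprin gene, *Tmem183a* and 4933406M09Rik. At the far end of the domain *Tnni1*, the slow skeletal troponin I gene, started in the last bases before the edge bin and lay mostly in that bin. *Tnnt2*, the cardiac troponin T gene, started in the bin after the edge bin. With a 320 kb square, with absent bin pairs left out or without smoothing, the edge lay 40 kb further left, in the bin where *Tnni1* starts. With an 800 kb square the nearest boundary was 640 kb further right. The 2 middle bins inside the domain hold the starts of *Myog* and *Ppfia4*. Relative to the expected contact, they together contacted the other side of the shallow edge more than their own domain. Their ratio was 0.94 within the domain, 1.48 to the domain on the left and 0.16 to the domain on the right. Over the window the middle had a ratio of 1.37 to the left and 0.87 to the right, and in read pairs 1.33 (1.23 to 1.44) and 0.89 (0.80 to 0.98). The left value was above that of 41 of 45 other windows.

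The most contacted far bins of the *Myog* middle all lay to the left, at 880, 1080 and 1560 kb, with ratios of 3.77, 3.32 and 2.43. The first overlapped *Sox13*, an SRY-related transcription factor gene, and the last held the start of *Nfasc*, neurofascin. These rested on 4, 5 and 5 read pairs, so that the counting interval of the first ran from 1.09 to 10.2 read pairs. In 22 of 44 other windows the highest far bin had a lower ratio than the 3.77 seen here, and the value was therefore ordinary.

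**Figure D2:**
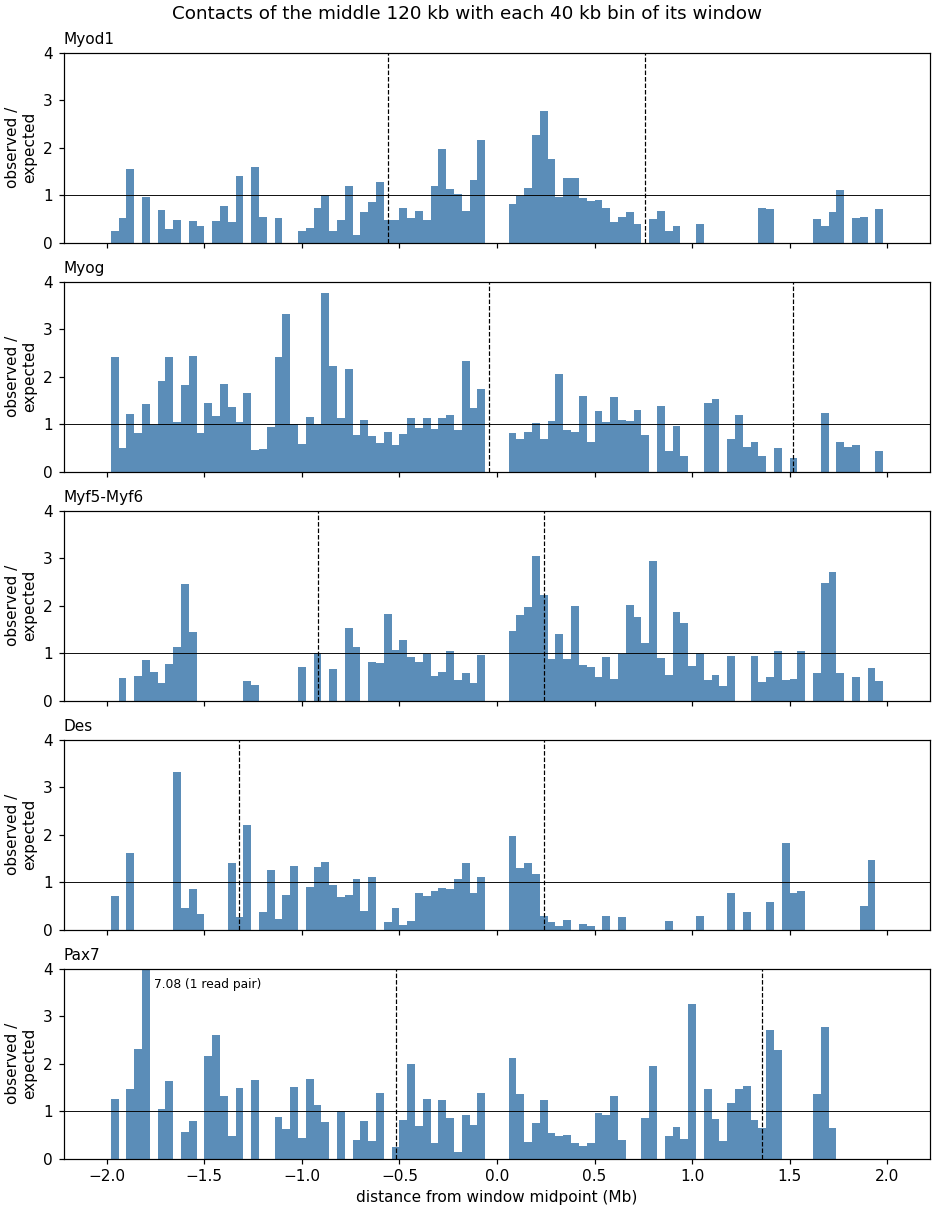
Ratio of observed to expected contact between the middle 120 kb and each 40 kb bin of its window, by distance from the midpoint in Mb; the line at 1 marks the expected contact and dashed lines the domain edges. *Myod1* contacts fall while still inside the domain, before either edge. Those of *Myf5*-*Myf6* run on over the right edge, and those of *Des* stop at the right edge. One *Pax7* bar exceeds the axis and is printed with its value.

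The middle of the *Pax7* window holds the 3′ part of the gene, since *Pax7* extends over 3 bins on the minus strand and starts 80 kb to the right of the midpoint bin. Insulation was low and flat, at -1.01, -1.03 and -1.03 in the middle and -1.04 in the start site bin, and 7 of 37 other windows of chromosome 4 had a lower middle. The value of the middle was -0.14 with a 320 kb square and -0.08 with the mean of the square, with 48.6% and 59.5% of other windows lower. The domain, chr4:138800001-140640000, was the longest of the 5 at 1840 kb, longer than 92.4% of the domains of the chromosome. Against the domains at the midpoints of other windows it was longer than 31 of 36 (86.1%). It held 24 coding gene starts. The nearest were *Tas1r2*, a sweet taste receptor, *Aldh4a1*, an enzyme of proline breakdown, *Iffo2* and *Ubr4* on the left, and *Klhdc7a*, *Igsf21* and *Gm9867* on the right.

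This domain depended on how insulation was computed. The left edge, 520 kb from the midpoint, was found again within 80 kb in 1 of 5 alternative settings. With squares of 320 kb or 800 kb, with the mean of the square, or with absent bin pairs left out, the nearest boundary was 0 or 40 kb from the midpoint, and the domain measured 800, 760, 640 and 1400 kb. With the 320 kb square the midpoint bin was itself a boundary, so that the size of 800 kb is the mean of the domains on either side of it. The right edge was found within 40 kb in all 5 settings, and contact across it was 0.43 times that within its flanks, with 110 of 3749 positions lower.

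*Pax7* contacts differed between the start site and the 3′ part. Centred on the start site bin, the ratio was 1.48 to the left and 0.80 to the right. In read pairs these were 1.51 (1.35 to 1.69) and 0.75 (0.64 to 0.88). The middle of the window had 0.91 and 0.98. The start site bin alone had 1.65 to the left and 0.59 to the right. Of 37 other windows, 35 had a lower left value than the middle centred on the start site. In the contact map a denser block began to the right of the gene. The far bins of the window middle with the highest ratios lay 1000, 1400 and 1440 kb to the right, with ratios from 2.30 to 3.26. They overlapped the peptidylarginine deiminase genes *Padi6* and *Padi4*, then *D4Ertd22e* and *Fbxo42*, an F-box gene, and then *Fbxo42* again, and rested on 9, 4 and 2 read pairs.

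The *Des* window held the sharpest boundary. Insulation fell through the middle from -1.11 over -1.40 to -1.80, and reached -3.97 at the right edge of the domain, in the bin chr1:75600001-75640000, 240 kb from the midpoint. Its strength of 5.93 was the highest of the 175 boundaries of chromosome 1. It was also the highest with squares of 320 or 800 kb and without smoothing, and ranked 4 of 192 with the mean of the square and 36 of 185 with absent bin pairs left out. In the last of these settings its strength was 1.56, below the 1.74 of the right *Myod1* edge. Of 144 bin pairs across the edge, 36.8% had a contact. These held 98 read pairs (79.6 to 119), against a chromosome median of 477. Contact across was 0.16 times that within the flanks, and 1 of 4760 positions of the chromosome was lower.

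**Figure D3:**
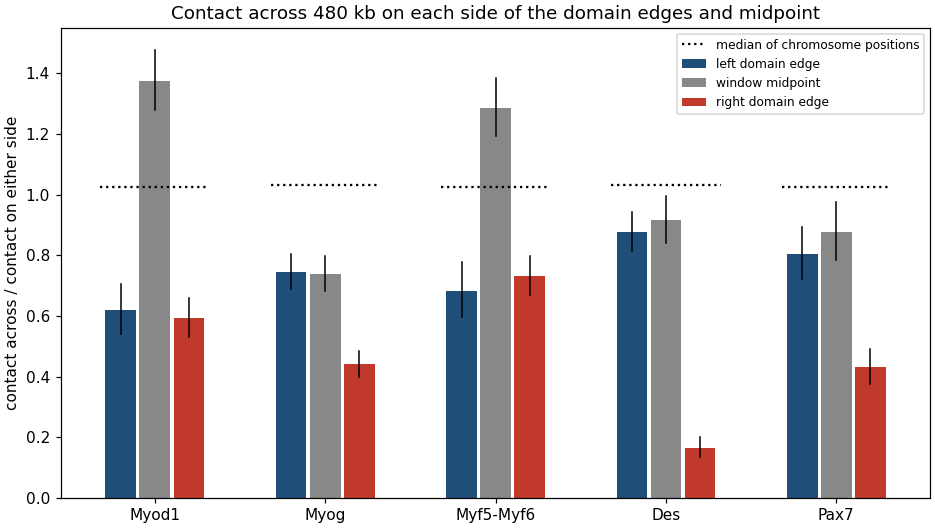
Contact across 480 kb on each side of a position divided by contact within these 480 kb flanks, at the left domain edge, the midpoint and the right domain edge of each window; thin lines are 95% Poisson intervals of the read pairs across, and dotted lines the median of all positions of the chromosome. The right *Des* edge, at 0.16, is the lowest of the 15 bars, and the *Myod1* and *Myf5*-*Myf6* midpoints lie above the chromosome median.

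The *Des* domain, chr1:74080001-75600000, measured 1520 kb and held all 54 coding gene starts of the window. *Des* lay between *Resp18* and *Dnpep*, an aspartyl aminopeptidase, on its left, and *Speg*, a kinase of striated muscle, *Gmppa*, *Accn4*, *Chpf*, a chondroitin polymerising factor, and *Tmem198* on its right. No coding gene started in the 1720 kb from the right edge to the end of the window, nor in the 680 kb to the left of the domain. *Slc4a3*, an anion exchanger named here after its position was seen, was the last gene to start before the edge, 162.8 kb from the centre of the midpoint bin.

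Contacts of the *Des* middle with the far part of its window were the lowest of the 5 windows. Within 400 kb the ratio was 1.04, above 30 of 45 other windows, but beyond 400 kb it was 0.37, above 1 of 45. In read pairs, 105 were seen beyond 400 kb against 322.5 expected, a ratio of 0.33 (0.27 to 0.39). Over the whole window the ratio was 0.77, above 4 of 45. To the domain on the right the ratio of the middle was 0.11, and 37.8% of its bin pairs in the window had a contact, with 1 of 45 other windows lower. The window accounted for 28.1% of the signal of the middle. The rest of the chromosome accounted for 26.9%, the highest of the 5 but below the median of 29.1% in the other windows. The 3 middle bins themselves accounted for 35.6%, higher than in all 45 other windows. The 3 highest far bins, 1640 and 1880 kb to the left and 1480 kb to the right, rested on 3, 2 and 3 read pairs and held no coding gene start.

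The number of HindIII sites, where the chromatin was cut, was low in some of these bins. The midpoint bin of *Des* had 4 sites and 279 read pairs, and 4.78% of the bins of the chromosome had fewer read pairs. The first middle bin of *Pax7* had 4 sites and 175 read pairs, with 3.58% of bins lower, against chromosome medians of 13 and 12 sites. The *Myod1* middle bins had 12 to 17 sites and 717 to 1035 read pairs. The share of signal within the middle was 35.3% at *Pax7*, also above all 37 other windows, and 29.0%, 26.8% and 21.8% at *Myod1*, *Myog* and *Myf5*-*Myf6*. The part of cutting sites in these shares was not tested. The median bin had 766.5 read pairs in the *Des* domain and 625 in the 1720 kb to its right, both stretches leaving out the edge bin.

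**Figure D4:**
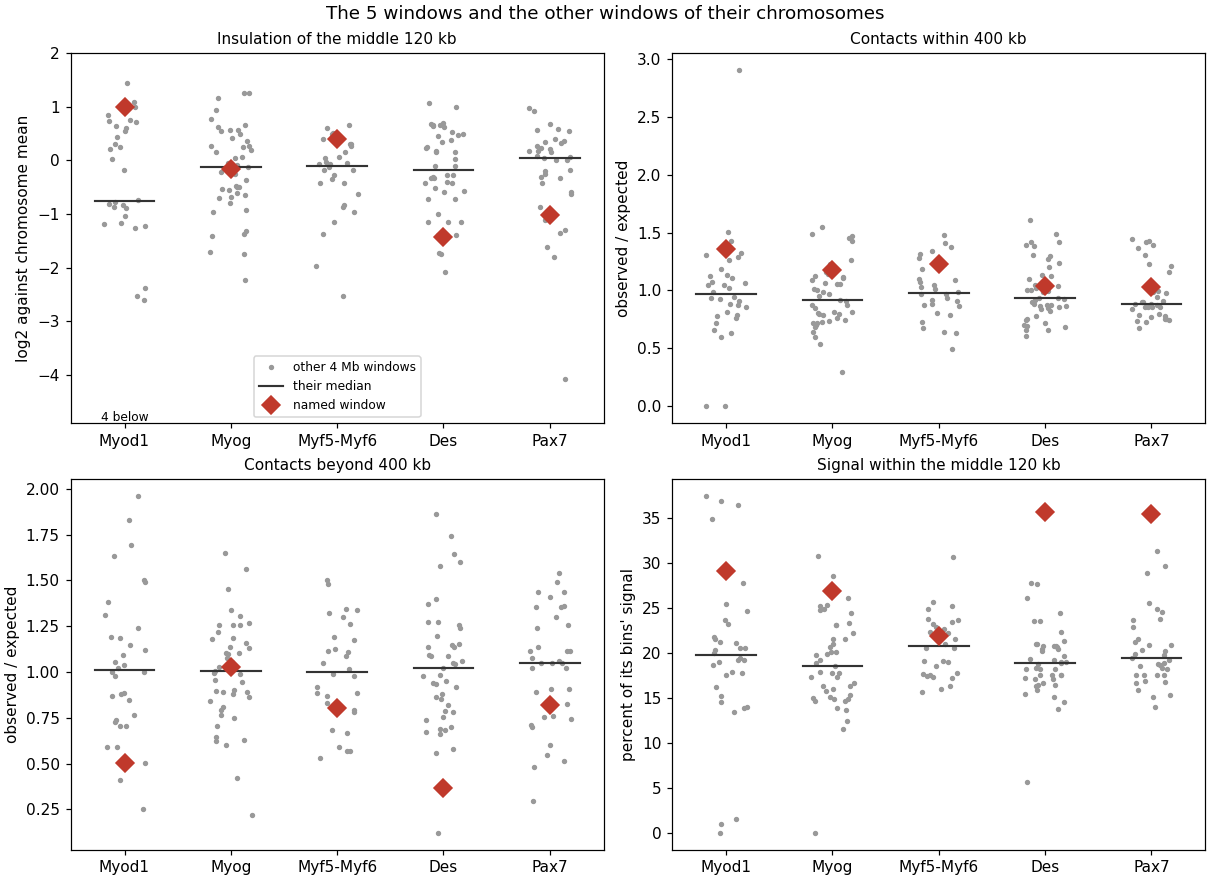
Values of the 5 windows (diamonds) and of the other 4 Mb windows of the same chromosomes (dots, with their median as a line) for insulation, contact within and beyond 400 kb as a ratio to expected, and the percent of signal within the middle 120 kb. *Myod1* and *Des* lie at opposite ends for insulation, at 1.00 and -1.44, and both are low beyond 400 kb; 4 other windows of chromosome 7 lie below the axis of the first panel.

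Across the 5 windows, then, insulation at the middle had no common direction. *Myod1* and *Myf5*-*Myf6* were above the median of the other windows and *Myog*, *Des* and *Pax7* below it. The sides of the last 3 depended on the setting. *Myog* lay above the median with a 320 kb square, with 57.8% of other windows lower, but with absent bin pairs left out it was at -0.33, with 17.8% lower. *Pax7* lay above it with the mean of the square, with 59.5% lower. The *Des* value of -1.44 was lower than in 41 of 44 other windows, but with absent bin pairs left out it was -0.03, with 56.8% of other windows lower. Contact within 400 kb was above the median of the other windows for all 5 middles, with ratios from 1.03 at *Pax7* to 1.36 at *Myod1*. The domain was longer than the median of other windows in 4 of 5 windows, the exception being *Myod1*, and with an 800 kb square in 0 of 5. One of 5 midpoints, that of *Myog*, had a boundary within 120 kb.

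The larger compartments were read from the first eigenvector of the contact correlations in 200 kb bins, signed so that gene-rich bins are positive. It explained 4.67% to 6.74% of the variance and had a correlation of 0.35 to 0.50 with the number of genes per bin over the bins of a chromosome. The midpoint of all 5 windows was positive, at 1.39 for *Des*, 1.17 for *Myod1*, 0.60 for *Myog*, 0.40 for *Pax7* and 0.17 for *Myf5*-*Myf6*. The sign held in 400 kb bins. Of the chromosome, 37.0% to 38.4% of bins were positive.

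At 2 edges the compartment changed sign. The counts below are of 40 kb bins, each given the value of the 200 kb bin that holds it, so neighbouring bins share values. The *Des* and *Myod1* windows each span 21 of the 200 kb bins. In the *Des* domain all 38 bins lay in positive stretches, with a mean of 1.21, and all 43 bins to the right of it were negative, with a mean of -1.82. The GC content was 47.6% in the domain and 41.1% to its right. The *Myod1* domain was likewise positive in all 32 bins, with a mean of 1.28 and 25.8 coding genes per Mb, and all 31 bins to its right were negative, with a mean of -1.26 and 8.06 genes per Mb. To the left of the *Myod1* domain the bins were positive as well. The *Myf5*-*Myf6* genes stood in a small positive stretch of a negative region. Of the 28 bins of their domain 9 were positive, and of the 27 bins to the left none. The *Myog* domain was positive in all 38 bins and the *Pax7* domain in 31 of 46.

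A list of 32 other muscle genes and one of 24 regulators of other lineages were set beside the 6. All 6 genes of the windows, 22 of 32 muscle genes (68.8%) and 9 of the 23 regulators of other lineages with a value (39.1%) had a positive start site bin. The share over all coding start sites of the autosomes was 62.1%. A boundary lay within 120 kb of 1 of 6, 8 of 32 (25.0%) and 8 of 23 (34.8%) start sites, against 32.2% of all. The median insulation was 0.11, -0.09 and 0.01, against -0.45 over all start sites. *Myf5* and *Myf6* start in 1 bin, which is counted once for each of them in these figures for the 6. Insulation was 1.02 in the start site bin of *Myod1*, 0.40 in that shared bin, -0.17 at *Myog*, -1.04 at *Pax7* and -1.11 at *Des*. Among the muscle genes, *Eya1*, a transcriptional coactivator, was above 99.2% of the bins of its chromosome, and *Mef2d*, a MADS-box factor, was above 4.36%. The skeletal myosin heavy chain genes *Myh3*, *Myh2*, *Myh1*, *Myh4* and *Myh8*, which form 1 cluster, shared a 720 kb domain with negative compartment values from -1.60 to -1.13.

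Few read pairs joined the windows. Of the 10 pairs of windows, 9 lay on different chromosomes, and in these 8 to 29 of 10000 bin pairs had a contact, from 10 to 30 read pairs. Of the 9, *Myog* and *Pax7* had the most, with 30 read pairs (20.2 to 42.8) and 2.30 times the median of other window pairs of the same chromosomes, of which 93.6% were lower. *Myog* and *Des*, 60.8 Mb apart on chromosome 1, had 292 read pairs and 0.89 times the median of windows at that distance. Above the median were 5 of the 10 pairs.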

How the data were processed

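Hi-C libraries of C2C12 cells had been made by in situ ligation after HindIII digestion. The authors mapped the pooled replicates to mm9 with HiC-Pro 2.7.8 and deposited the contact signal of each pair of 40 kb bins after iterative correction. All 22 chromosomes had the length of the reference NCBIM37, which gave genes and sequences. Bin biases were solved from pairs between chromosomes, and dividing them out left whole read pairs (within 0.01) for 99.997% of bin pairs, 25004780 in total. Insulation used a 480 kb square, its interquartile mean, smoothing over 5 bins and a slope over 320 kb on each side, with absent pairs as 0. Expected contact was the chromosome mean at each distance. Other windows were tiled from each window over its chromosome. The code was tested on simulated data. Python 3.11.15, NumPy 2.4.6 and SciPy 1.17.1 were used. Named genes were the 6 genes of the windows, with the coding genes of each domain and its edge bins. In domains with over 8, the 4 nearest on each side were named. Genes starting in the 3 most contacted bins beyond 400 kb were named as well. Genes of the lists, and those said to overlap a bin, were named after their values were seen. The windows and lists were chosen with earlier results of these data known. Alternatives are given in the closing section. RNA-seq and ChIP-seq samples were not analysed here, and 1 far bin and 1 motif match of the Myod1 window are not reported here.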

Additional observations from a re-analysis of the deposited data

How the results depend on the processing

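Of 173 values under alternative settings, 132 stayed within the limit set and 41 moved. The limit was a factor of 1.5 for a count, and for a value the 95% binomial interval of its rank among the other windows. The number of windows with a boundary within 120 kb of the midpoint rose from 1 to 2 with a 320 kb square, with the mean of the square and with absent bin pairs left out, *Pax7* being the addition. The number with a domain longer than the median fell from 4 to 0 with an 800 kb square. The share of boundary bins with the CTCF core moved from 80.7% to 98.3% with 1 bin on each side and to 14.6% with the strict consensus, which was chosen after seeing the data. The use of recovered read pairs, and of a *Pax7* middle centred on the start site, was also chosen after seeing the data. The cause of these shifts was not tested, except that a wider bin or a stricter motif changes the share by construction. Des insulation ranged from -2.30 with an 800 kb square to -0.03 with absent bin pairs left out. No paired analysis was possible because the replicates were pooled into 1 matrix and no result comes from a test. Depth limits what single bin pairs can show, as most of those with a contact rest on 1 read pair.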

Other observations

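When the windows were narrowed to 2 Mb, 7 of the 10 pairs lay above the median of other pairs. *Myog* and *Pax7* then had 11 read pairs (5.49 to 19.7) and 3.45 times the median, and *Myod1* and *Myog* 8 read pairs (3.45 to 15.8) and 3.14 times the median, with 96.1% and 93.0% of other pairs lower. The lowest was *Myod1* with *Myf5*-*Myf6*, at 1 read pair.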
